A study of Mus musculus with 12 samples.

Results

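The immediate early genes described here are 10 genes, Egr1, Egr2, Egr3, Fos, Fosb, Jun, Junb, Atf3, Ier2 and Klf6, taken by name from the 21959 genes of the count table after its Ensembl identifiers had been matched to symbols. They were followed in testis from wild type males of ICR, which is an outbred stock, all aged 8 months when dosing began and 9 months at collection. The groups received a blueberry extract, called BBE in the labels, at 50, 100 or 200 mg/kg per day by stomach tube, or saline by the same route. Each group had 3 libraries of polyadenylated RNA, 12 in all, and the study's question was whether the extract eases the inflammation and loss of sperm motility that come with age. The labels do not say that the 3 libraries of a group came from separate animals, so each p-value reflects the spread among libraries alone, and that spread may be technical. All 4 groups, saline included, were of this one age. Because RNA was taken from whole testis, a lower level can mean fewer cells of a type or less RNA per cell, and these cannot be told apart.

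Immediate early genes are transcribed within minutes of a stimulus and need no new protein synthesis, because the factors that switch them on, among them SRF with its partners and CREB, are already present and are activated by kinases. Most of them encode transcription factors. EGR proteins bind GC-rich sites through zinc fingers, FOS and JUN proteins pair through leucine zippers to form the dimer AP-1, ATF3 belongs to the same zipper class, and KLF6 is a zinc finger factor of another family. In the testis, follicle-stimulating hormone is known to induce Fos in Sertoli cells, which support the germ cells.

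The sequences just upstream of these genes are shown for 4 members: Junb and Fosb, which were higher at 100 mg/kg, Klf6, which was lower there, and Jun, the close relative of Junb, which passed no test. RefSeq promoter windows, 250 bases before the start site and 50 from it on, of GRCm38.p6, were used for 7 of the 10 members. Each runs 5′ to 3′ on the gene's own strand. Capitals mark matches, on either strand, to the CArG box bound by SRF, the cyclic AMP response element CRE (TGACGTCA) or its first 5 letters (TGACG), the AP-1 site (TGAGTCA or TGACTCA), the EGR site (GCGGGGGCG or GCGTGGGCG), the TATA box (TATAAA) and the CCAAT box (CCAAT).
Junb promoter, chr8:84978699-84978998 (- strand): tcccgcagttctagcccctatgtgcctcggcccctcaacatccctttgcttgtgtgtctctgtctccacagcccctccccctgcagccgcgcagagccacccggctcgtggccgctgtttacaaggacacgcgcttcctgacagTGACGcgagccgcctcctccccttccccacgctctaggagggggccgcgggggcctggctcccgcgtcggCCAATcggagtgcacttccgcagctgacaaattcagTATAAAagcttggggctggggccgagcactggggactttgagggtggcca
Jun promoter, chr4:95052173-95052472 (- strand): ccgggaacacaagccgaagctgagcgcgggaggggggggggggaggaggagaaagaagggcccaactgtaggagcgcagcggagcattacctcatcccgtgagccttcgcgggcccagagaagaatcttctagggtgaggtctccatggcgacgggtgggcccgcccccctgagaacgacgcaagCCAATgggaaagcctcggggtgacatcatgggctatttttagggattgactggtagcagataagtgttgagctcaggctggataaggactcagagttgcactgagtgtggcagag
Fosb promoter, chr7:19309996-19310295 (- strand): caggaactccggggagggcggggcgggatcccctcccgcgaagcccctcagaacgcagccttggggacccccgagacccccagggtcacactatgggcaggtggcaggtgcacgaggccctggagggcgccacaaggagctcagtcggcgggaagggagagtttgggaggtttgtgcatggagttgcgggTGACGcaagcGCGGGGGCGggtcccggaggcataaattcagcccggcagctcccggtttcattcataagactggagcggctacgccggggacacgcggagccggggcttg
Klf6 promoter, chr13:5861239-5861538 (+ strand): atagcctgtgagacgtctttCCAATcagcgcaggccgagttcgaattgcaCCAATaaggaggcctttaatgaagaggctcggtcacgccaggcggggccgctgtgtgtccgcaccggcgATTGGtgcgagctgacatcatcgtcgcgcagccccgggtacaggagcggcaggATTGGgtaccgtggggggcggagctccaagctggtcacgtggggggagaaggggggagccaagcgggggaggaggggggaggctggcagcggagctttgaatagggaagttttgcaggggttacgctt

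Positions are counted from the start site as 1, with -1 as the base before it. The Fosb window held the short CRE form at -60 to -56 and, downstream of it, a match to the EGR site at -50 to -42. Junb had the short CRE form at -106 to -102, a CCAAT box at -36 to -32 and TATAAA from position 1 to 6. Klf6 had 4 CCAAT boxes, from -230 to -226, from -200 to -196, from -131 to -127 and from -78 to -74, the last pair on the opposite strand. In Jun the CCAAT box at -65 to -61 was the match found, and variants of the listed letters were not searched. Among windows not shown, Fos had the short CRE form at -129 to -125 and -66 to -62 and TATAAA at -33 to -28. Some of the Egr2 windows held a CArG box, in 1 of them at -72 to -63. Among 32851 windows of the same length in the RefSeq table, 20.8% held the short CRE form, 1.79% the complete CRE, 5.2% an AP-1 site, 3.47% an EGR site, 1.63% a CArG box, 13.6% TATAAA and 37.4% a CCAAT box. The complete CRE contains the short form, so these shares overlap. A match describes the letters in the window and is neither a binding site nor a cause.

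Library totals ran from 14382378 to 19118265 counts, and the count filter kept 15682 genes, 9 of the 10 members among them. Levels are given in CPM, that is, read counts relative to the size of the library after TMM scaling, and 1 CPM was worth 14.4 to 19.3 counts. Library 3 at 100 mg/kg stood apart from its group, since its counts differed from those of library 1 by a chi-square of 11.85 for each degree of freedom and from library 2 by 7.871, where other pairs of the same group gave 1.562 to 3.019. The fold changes at 100 mg/kg are therefore given without it as well. Those of the members follow the counts of calls, and those of pathway genes stand beside each list. The cell type markers are given with all libraries only. Fold changes at 100 mg/kg also followed transcript length, with a rank correlation of -0.492 across 15653 genes, which are not independent replicates, against 0.0289 at 50 mg/kg and 0.131 at 200 mg/kg. The testis label matched its markers: 5 genes of elongating spermatids summed to 11700 to 20000 CPM in every library.

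The members spanned a wide range in saline testes. Per kilobase of the longest annotated transcript, Klf6 stood highest at 2.79 ± 0.153 CPM per kb (mean ± SD, n = 3 as for every mean below), separate from Jun at 2.00 ± 0.133. Jun, Ier2 (1.99 ± 0.677) and Junb (1.69 ± 0.0612) overlapped in that order, and Junb lay above Egr3 (1.36 ± 0.28), which overlapped with Egr1 (1.08 ± 0.228). Below a gap came Fosb at 0.368 ± 0.0294, then Fos at 0.208 ± 0.122, Egr2 at 0.131 ± 0.0657 and Atf3 at 0.0700 ± 0.0463 CPM per kb, each overlapping with the one before it. In the 100 mg/kg group the order was Egr3 (3.43 ± 0.161), Ier2 (2.90 ± 0.0811), Junb (2.63 ± 0.258), Egr1 (2.35 ± 0.162), Jun (1.88 ± 0.128) and Klf6 (1.80 ± 0.279 CPM per kb), so that Klf6, first in saline, ranked 6 of 10. Egr3 was first at every dose of the extract, though at 50 mg/kg its range overlapped with that of Klf6.

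**Figure D1:**
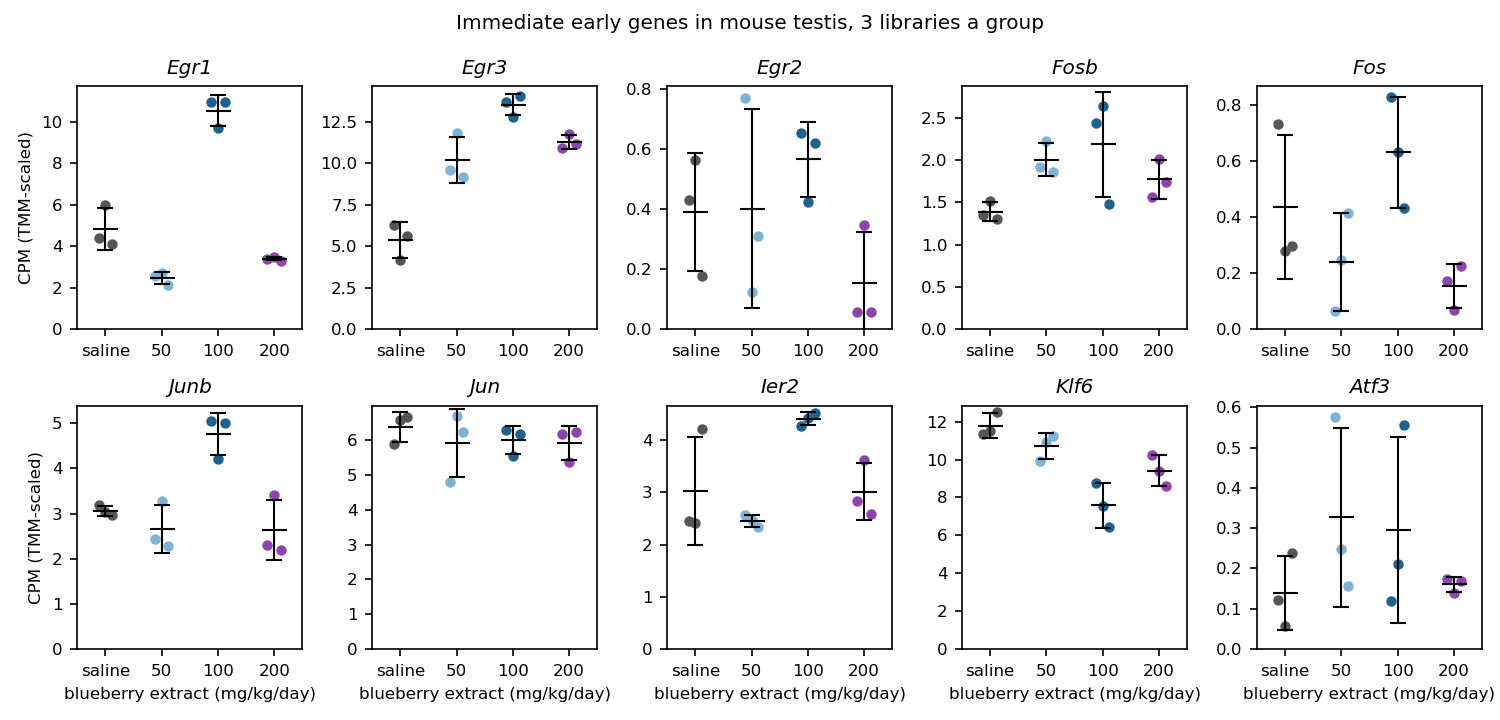
Levels of the 10 immediate early genes in testis, in TMM-scaled CPM on linear axes that start at 0, against the dose of blueberry extract in mg/kg per day. Each point is a library, horizontal bars are means and error bars are SD over 3 libraries, which run below 0 and are clipped for Egr2 at 200 mg/kg. Egr1 at 100 mg/kg (9.70 to 10.98 CPM) lies above all other groups, while Egr3 is above saline at every dose and Jun overlaps throughout.

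Egr1 encodes a zinc finger factor that growth factors and hormones induce in many tissues. The gene (ENSMUSG00000038418) lies on chromosome 18 from 34859823 to 34864984 of GRCm38, on the plus strand. Its level did not follow the dose in order. It had 4.41, 6.01 and 4.10 CPM in saline testes, 2.56, 2.72 and 2.12 CPM at 50 mg/kg, 10.98, 9.70 and 10.95 CPM at 100 mg/kg, and 3.41, 3.48 and 3.31 CPM at 200 mg/kg. All 3 libraries at 50 and at 200 mg/kg lay below all 3 saline libraries, and all 3 at 100 mg/kg lay above them. Tests were made with edgeR's quasi-likelihood test, whose p-values were adjusted over all 15682 genes by Benjamini-Hochberg, and a gene was called at an adjusted p under 0.05. Egr1 fell 1.98-fold at 50 mg/kg (log2 fold change -0.98 ± 0.17, SE; adjusted p = 0.00031) and rose 2.16-fold at 100 mg/kg (1.11 ± 0.14; adjusted p = 4.09e-07). At 200 mg/kg it fell 1.43-fold (-0.52 ± 0.17; adjusted p = 0.0311), and that call was lost without saline library 2, the highest of its group (-0.33; adjusted p = 0.235), without any one of the 200 mg/kg libraries (adjusted p from 0.0626 to 0.086) and in DESeq2 (0.0505). The 3 comparisons share the saline libraries.

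Between doses, which does not use the saline libraries' levels, Egr1 was 4.28-fold higher at 100 than at 50 mg/kg (log2 2.10 ± 0.16; adjusted p = 1.68e-10 in edgeR's quasi-likelihood test) and 3.09-fold lower at 200 than at 100 mg/kg (-1.63 ± 0.15; adjusted p = 3.63e-09). The libraries did not overlap in either comparison. The difference of 200 from 50 mg/kg did not pass (0.47 ± 0.19; adjusted p = 0.174), although the 3 libraries at 200 mg/kg lay above the 3 at 50 mg/kg. Without 100 mg/kg library 3 the rise over saline was 1.09 (adjusted p = 1.54e-08).

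Egr3, another zinc finger factor of the family (ENSMUSG00000033730, chromosome 14 from 70077203 to 70082614, plus strand), was higher at every dose. It had 6.31, 4.16 and 5.64 CPM in saline testes, 9.62, 11.8 and 9.17 CPM at 50 mg/kg, 13.7, 12.8 and 14.04 CPM at 100 mg/kg, and 10.9, 11.8 and 11.2 CPM at 200 mg/kg. No treated library came down to the saline range. It rose 1.9-fold at 50 mg/kg (log2 0.93 ± 0.14; adjusted p = 3.58e-05), 2.52-fold at 100 mg/kg (1.33 ± 0.13; adjusted p = 1.46e-08) and 2.11-fold at 200 mg/kg (1.07 ± 0.13; adjusted p = 3.91e-06), and each call held under every alternative that was run. The level at 100 mg/kg was 1.33-fold above that at 50 mg/kg (0.41 ± 0.12; adjusted p = 0.00542), a call lost without 50 mg/kg library 3 (0.33; adjusted p = 0.0503). The level at 200 mg/kg differed from neither other dose at the threshold, with -0.26 ± 0.12 against 100 mg/kg (adjusted p = 0.0641) and 0.15 ± 0.12 against 50 mg/kg (adjusted p = 0.597). The first of these differences was called after a correction for transcript length (-0.39; adjusted p = 0.00448) and in the fit of those groups alone (-0.27; adjusted p = 0.034).

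Because Egr3 and Egr1 were counted in the same libraries, their ratio of reads needs no scaling between libraries. There were 1.43, 0.692 and 1.38 Egr3 reads for each Egr1 read in saline testes, 3.75, 4.34 and 4.32 at 50 mg/kg, 1.25, 1.32 and 1.28 at 100 mg/kg, and 3.20, 3.38 and 3.37 such reads at 200 mg/kg. The ratio at 50 and 200 mg/kg lay above every saline value, while the 100 mg/kg values lay within the saline range. The ratio alone does not show which gene moved. In the tests above both were higher at 100 mg/kg, and at 50 and 200 mg/kg Egr3 was called higher and Egr1 lower. The Egr1 call at 200 mg/kg was lost in 5 of 22 alternatives.

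Egr2, the family member known for its part in myelination (ENSMUSG00000037868, chromosome 10 from 67535475 to 67542188, plus strand), was close to the limit of detection, with 76 counts in all 12 libraries. It had 7, 10 and 3 counts in saline testes, 12, 2 and 6 at 50 mg/kg, 11, 8 and 10 at 100 mg/kg, and 1, 5 and 1 counts at 200 mg/kg. The saline range overlapped with that of each dose. No comparison with saline passed, with log2 fold changes of 0.0032 ± 0.61, 0.50 ± 0.55 and -1.42 ± 0.74 at 50, 100 and 200 mg/kg (adjusted p = 0.999, 0.465 and 0.198 in edgeR's quasi-likelihood test). The value at 200 mg/kg was called in limma voom (-1.68; adjusted p = 0.0426). It was 3.79-fold lower at 200 than at 100 mg/kg (-1.92 ± 0.69; adjusted p = 0.0215), a call lost without 100 mg/kg library 1 (adjusted p = 0.051) and without 200 mg/kg library 1 or 3 (0.1 and 0.103). Egr2 and Fos passed the count filter narrowly, and genes with few reads pass it mainly where they are high. Without the 100 mg/kg libraries the filter kept 7 members, and Egr2 and Fos were not among them. Their calls against the 100 mg/kg group, where their means were highest, therefore carry that selection and are no support for a difference.

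**Figure D2:**
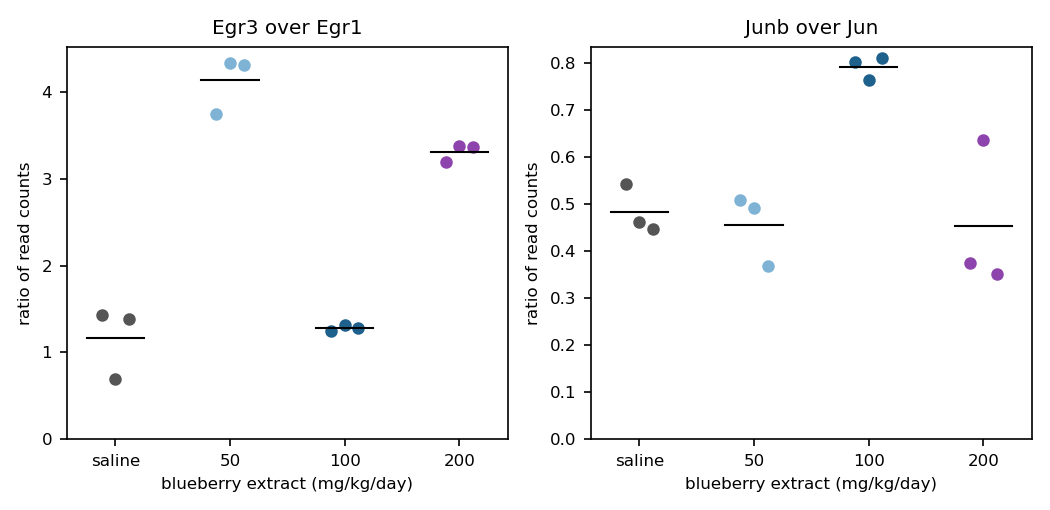
Reads of Egr3 for each read of Egr1 (left) and of Junb for each read of Jun (right) in testis, against the dose of blueberry extract in mg/kg per day. Points are libraries, lines are group means, and both axes are linear from 0. Egr3 over Egr1 is 3.20 to 4.34 at 50 and 200 mg/kg and at most 1.43 in the other groups, and Junb over Jun is highest at 100 mg/kg, at 0.762 to 0.81.

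Of the AP-1 subunits, Fos, which pairs with JUN proteins (ENSMUSG00000021250, chromosome 12 from 85473890 to 85477273, plus strand), also had 76 counts in all. It had 12, 5 and 5 counts in saline testes, 1, 4 and 8 at 50 mg/kg, 14, 12 and 7 at 100 mg/kg, and 3, 1 and 4 counts at 200 mg/kg. The 200 mg/kg libraries lay below the saline libraries, and the other doses overlapped with saline. Against saline nothing passed (-0.76 ± 0.59, 0.54 ± 0.48 and -1.38 ± 0.65 at 50, 100 and 200 mg/kg, adjusted p = 0.415, 0.365 and 0.149). Fos was 3.8-fold lower at 200 than at 100 mg/kg (-1.93 ± 0.60; adjusted p = 0.0091 in edgeR's quasi-likelihood test, with a range of 0.00186 to 0.0435 over 19 alternatives). Its difference of 100 from 50 mg/kg (1.30 ± 0.54; adjusted p = 0.0476) was lost in 13 of 19 alternatives, with adjusted p up to 0.19.

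Fosb encodes another FOS-type subunit (ENSMUSG00000003545, chromosome 7 from 19302696 to 19310051, minus strand), and its promoter window is the one above with the EGR site. It had 1.35, 1.52 and 1.31 CPM in saline testes, 1.92, 2.23 and 1.86 CPM at 50 mg/kg, 2.43, 2.64 and 1.48 CPM at 100 mg/kg, and 1.56, 2.02 and 1.74 CPM at 200 mg/kg. The 50 and 200 mg/kg libraries lay above saline, and at 100 mg/kg library 3 fell within the saline range while the other libraries were the highest of the series. Fosb rose 1.58-fold at 100 mg/kg (log2 0.66 ± 0.24; adjusted p = 0.026), and 0.87 without library 3 (adjusted p = 0.0052). That call was lost without saline library 1 (adjusted p = 0.064) or 3 (0.078), without 100 mg/kg library 1 (0.0871) or 2 (0.151) and in DESeq2 (0.0552). At 50 mg/kg (0.52 ± 0.25; adjusted p = 0.159) and 200 mg/kg (0.34 ± 0.26; adjusted p = 0.393) it did not pass. Nor did it pass at 100 against 50 mg/kg (0.14 ± 0.23; adjusted p = 0.639 in edgeR's quasi-likelihood test) or 200 against 50 mg/kg (-0.18 ± 0.24; adjusted p = 0.775). The value at 200 against 100 mg/kg (-0.32 ± 0.23; adjusted p = 0.262) was called in limma voom alone.

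Junb, a JUN-type subunit (ENSMUSG00000052837, chromosome 8 from 84974484 to 84978718, minus strand), was raised at 100 mg/kg. It had 3.19, 3.03 and 2.97 CPM in saline testes, 2.44, 3.28 and 2.28 CPM at 50 mg/kg, 5.04, 4.22 and 5.01 CPM at 100 mg/kg, and 2.31, 3.41 and 2.19 CPM at 200 mg/kg. The 3 libraries at 100 mg/kg were the highest of the 12, and the other doses overlapped with saline. It rose 1.55-fold at 100 mg/kg (log2 0.63 ± 0.18; adjusted p = 0.00505), and at 50 and 200 mg/kg it did not pass (-0.21 ± 0.20 and -0.24 ± 0.20, adjusted p = 0.519 and 0.458). It was 1.79-fold higher at 100 than at 50 mg/kg (0.84 ± 0.19; adjusted p = 0.000505) and 1.82-fold lower at 200 than at 100 mg/kg (-0.87 ± 0.19; adjusted p = 0.000382). These calls held under every alternative run.

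The Junb locus overlaps Prdx2, the gene of an antioxidant peroxiredoxin on the opposite strand, in 173 of its 2301 exonic bases. The strand setting of the counting is unknown here, and without strand reads from these genes cannot be told apart in the shared bases. Prdx2 averaged 39.4 CPM at 100 mg/kg against 33.9 CPM in saline testes (log2 0.21 ± 0.077; adjusted p = 0.0238 in edgeR's quasi-likelihood test), and it fell at 50 mg/kg (-0.24 ± 0.080; adjusted p = 0.0379) and likewise with 200 mg/kg (-0.27 ± 0.080; adjusted p = 0.0196). Its part in the Junb values was not tested.

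Jun, the founding JUN subunit (ENSMUSG00000052684, chromosome 4 from 95049034 to 95052222, minus strand), had the highest adjusted p of the 9 tested members in the test for any difference among the 4 groups (0.866). It had 5.88, 6.57 and 6.65 CPM in saline testes, 4.81, 6.68 and 6.22 CPM at 50 mg/kg, 6.29, 5.54 and 6.18 CPM at 100 mg/kg, and 6.18, 5.36 and 6.23 CPM at 200 mg/kg. All groups overlapped. Its log2 fold change at 100 mg/kg was -0.089 ± 0.14, with a 95% interval of -0.37 to 0.19. Intervals at 50 and 200 mg/kg were -0.39 to 0.18 and -0.38 to 0.18. An antisense gene, Junos, overlaps Jun in the annotation and was not in the table, so reads from it may be counted as Jun if strand was not used.

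Junb and Jun parted at 100 mg/kg in the ratio of their reads. There were 0.542, 0.462 and 0.446 Junb reads for each Jun read in saline testes, 0.507, 0.491 and 0.367 at 50 mg/kg, 0.802, 0.762 and 0.81 at 100 mg/kg, and 0.374, 0.636 and 0.351 such reads at 200 mg/kg. The ratio at 100 mg/kg was above that of the other 9 libraries, and the other groups overlapped.

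Atf3, a stress-induced factor of the zipper class (ENSMUSG00000026628, chromosome 1 from 191170296 to 191218039, minus strand), was the member under the count filter, with 46 counts in the 12 libraries. It had 2, 1 and 4 counts in saline testes, 9, 4 and 3 at 50 mg/kg, 2, 4 and 9 at 100 mg/kg, and 3, 2 and 3 counts at 200 mg/kg. A single library held most of the counts at 50 mg/kg, and another did so at 100 mg/kg. Pooled and scaled for depth, the ratio to saline was 2.28 at 50 mg/kg, with an exact 95% interval of 0.888 to 6.56 that covers counting error only. It was 2.1 (0.806 to 6.09) at 100 mg/kg and 1.18 (0.373 to 3.81) at 200 mg/kg, so no difference was detectable at this depth.

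Ier2, a small nuclear protein gene without introns (ENSMUSG00000053560, chromosome 8 from 84661331 to 84662852, minus strand), had 2.45, 2.42 and 4.22 CPM in saline testes, 2.56, 2.47 and 2.33 CPM at 50 mg/kg, 4.27, 4.43 and 4.51 CPM at 100 mg/kg, and 2.83, 3.62 and 2.58 CPM at 200 mg/kg. Saline library 3 was far above the other saline libraries and nearly reached the 100 mg/kg libraries, which were close together. Ier2 rose 1.46-fold at 100 mg/kg (log2 0.54 ± 0.19; adjusted p = 0.0213), and the call was lost after the length correction (0.34; adjusted p = 0.151), without saline library 1 (0.11) or 2 (0.14) and without 100 mg/kg library 2 (0.0535). Without saline library 3 the rise was 0.84 on the log2 scale (adjusted p = 0.00109). It was 1.8-fold higher at 100 than at 50 mg/kg (0.84 ± 0.20; adjusted p = 0.00102 in edgeR's quasi-likelihood test), a call that held under all alternatives run. At 200 against 100 mg/kg it fell 1.48-fold (-0.56 ± 0.19; adjusted p = 0.0179), lost after the length correction (adjusted p = 0.177) and without 200 mg/kg library 1 (0.0649) or 3 (0.0854). Against saline it did not pass at 50 mg/kg (-0.30 ± 0.21; adjusted p = 0.363) or 200 mg/kg (-0.02 ± 0.21; adjusted p = 0.959).

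Klf6, a Krüppel-like zinc finger factor described as a tumour suppressor in human tissues (ENSMUSG00000000078, chromosome 13 from 5861482 to 5870394, plus strand), went the other way. It had 11.3, 11.5 and 12.5 CPM in saline testes, 9.94, 10.9 and 11.2 CPM at 50 mg/kg, 8.78, 7.54 and 6.43 CPM at 100 mg/kg, and 10.2, 9.39 and 8.59 CPM at 200 mg/kg. Every treated library lay below every saline library, and the lowest was library 3 at 100 mg/kg. Klf6 fell 1.55-fold at 100 mg/kg (log2 -0.63 ± 0.12; adjusted p = 7.16e-05), and stood at -0.53 without library 3 (adjusted p = 0.000312). The fall at 200 mg/kg was 1.25-fold (-0.33 ± 0.11; adjusted p = 0.0469), and that call was lost in 12 of 22 alternatives, among them DESeq2 (0.0739), library size alone (0.0674), the fit with replicate number as a block (0.0616) and leaving out any one saline or 200 mg/kg library (0.0502 to 0.176). At 50 mg/kg it did not pass (-0.14 ± 0.11; adjusted p = 0.44). Klf6 was also 1.41-fold lower at 100 than at 50 mg/kg (-0.50 ± 0.12; adjusted p = 0.00103). It was 1.24-fold higher at 200 than at 100 mg/kg (0.31 ± 0.12; adjusted p = 0.0359), a call lost in 8 of 21 alternatives, including the length correction (0.14; adjusted p = 0.349) and the fit without 100 mg/kg library 3 (0.20; adjusted p = 0.201).

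**Figure D3:**
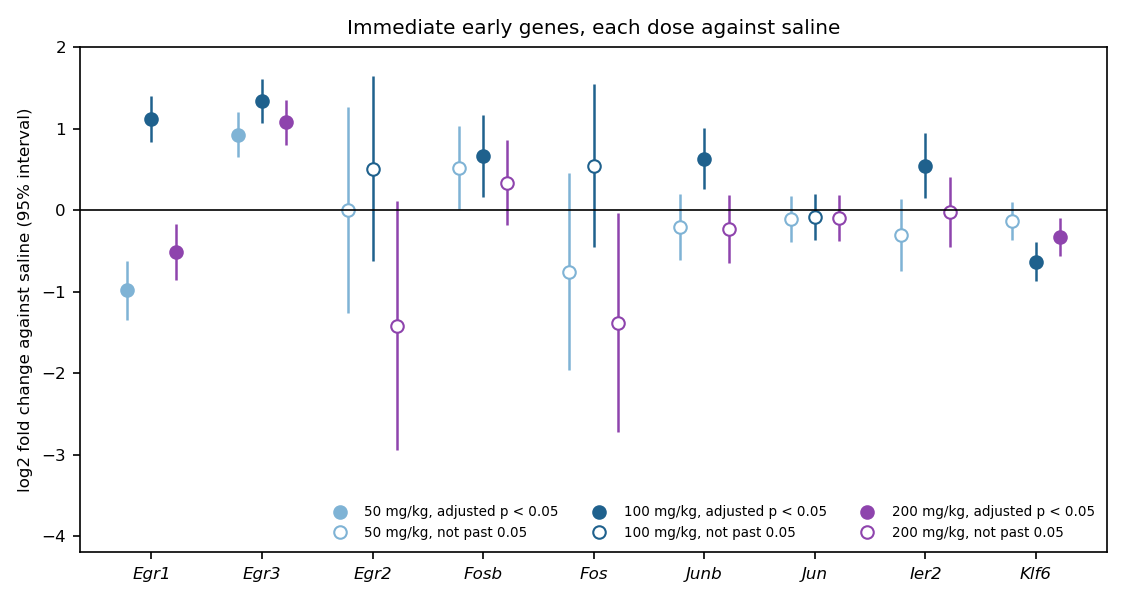
Log2 fold change against saline for the 9 tested members at 50, 100 and 200 mg/kg of blueberry extract, with 95% intervals. Filled points passed at an adjusted p under 0.05 over all genes in edgeR's quasi-likelihood test and open points did not. Egr3 is above 0 at every dose, Egr1 is above 0 at 100 mg/kg and below it at the other doses, and the intervals of Egr2 and Fos are the widest.

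At 50 mg/kg, then, 2 of the 9 tested members were called, Egr3 higher and Egr1 lower, against 17.2% of all genes tested (9.21% higher and 8.02% lower). Groups did not overlap for 4 of the 9 against 37.6% of all genes, and the tested members' median log2 fold change was -0.14 against -0.00056 over all genes. With 100 mg/kg, 6 of 9 were called, Egr1, Egr3, Fosb, Junb and Ier2 higher and Klf6 lower. The background at that dose was 52.4%, of which 25.6% higher and 26.8% lower, and non-overlap held for 5 of the 9 against 58.7%. A call at 100 mg/kg was thus common among all genes. The tested members had a median log2 fold change of 0.54, which was the value of Fos, and all genes one of 0.0086. The members' median at each dose includes Fos and Egr2, which passed the count filter only with the 100 mg/kg libraries. These medians therefore carry that selection and are no support for a shift of the members. At 200 mg/kg, 3 of 9 were called, Egr3 higher and Egr1 and Klf6 lower, against 18.6% of all genes (10.3% higher and 8.3% lower), non-overlap was 5 of 9 against 39.2%, and the medians were -0.24 and -0.0013. DESeq2 called 1 member at that dose.

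Between doses, 6 of 9 were called at 100 against 50 mg/kg (Egr1, Egr3, Fos, Junb and Ier2 higher, Klf6 lower), where 51.5% of all genes were (24.6% higher and 26.9% lower), and the libraries did not overlap for 6 of 9 against 58.6%. At 200 against 100 mg/kg 6 of 9 were called (Klf6 higher, and Egr1, Egr2, Fos, Junb and Ier2 lower), where 53% were (27.8% higher and 25.2% lower), with no overlap for 6 of 9 against 59.3%. At 200 against 50 mg/kg edgeR's quasi-likelihood test called 0 members, against 5.05% of all genes (2.54% higher and 2.51% lower), and the libraries did not overlap for 2 of 9 against 25.9%. Egr1 had an unadjusted p of 0.0194 there, 1 of 9 under 0.05, and DESeq2 and limma voom also called 0. In the test for any difference among the 4 groups, 6 of 9 passed, Egr1, Egr3, Klf6, Junb, Ier2 and Fos, against 64.3% of all genes. Fos lost that call without 100 mg/kg library 1 or 2 or 200 mg/kg library 1 or 2 (adjusted p from 0.0625 to 0.106). Fosb (0.0981) gained one in limma voom (0.00791), after the length correction (0.0481) and without 100 mg/kg library 3 (0.0267), and Egr2 in limma voom (0.0176) and without 200 mg/kg library 2 (0.0331). These counts describe the 9 members that passed the filter. Fos and Egr2 among them rest on few reads and passed it only with the 100 mg/kg libraries included. Under a filter of at least 20 counts in 3 libraries, 7 members were tested. Against saline, 2, 6 and 3 of the 7 were called at 50, 100 and 200 mg/kg. It was 5 of 7 at 100 against 50 mg/kg and 0 of 7 at 200 against 50 mg/kg. At 200 against 100 mg/kg 4 of 7 were called (Egr1, Junb, Ier2 and Klf6). The share of all genes called under that filter is not given here, so these counts are no result about the members.

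Without 100 mg/kg library 3 the log2 fold changes against saline were 1.31 for Egr3 (adjusted p = 2.02e-12 in edgeR's quasi-likelihood test), 0.60 for Junb (0.013) and 0.53 for Ier2 (0.0341), beside those of Egr1, Fosb and Klf6 above. Egr2 (0.44; adjusted p = 0.582), Fos (0.75; 0.257) and Jun (-0.11; 0.616) again did not pass. Each of the 6 calls at 100 mg/kg was thus made without that library too. Against 50 mg/kg the values became 2.07 for Egr1 (adjusted p = 4.91e-16), 0.39 for Egr3 (0.00803), 1.5 for Fos (0.0306), 0.80 for Junb (0.00109), 0.83 for Ier2 (0.00123) and -0.40 for Klf6 (0.00741). At 200 against 100 mg/kg they were -1.61 for Egr1 (adjusted p = 7.77e-13), -1.86 for Egr2 (0.0329), -2.13 for Fos (0.0047), -0.83 for Junb (0.000753) and -0.55 for Ier2 (0.0285), and the difference of Klf6 was the one whose call was lost.

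Fold changes at 100 mg/kg differed with transcript length across all genes. The 3872 genes of 3000 to 4500 bases had a median log2 fold change of -0.092 and the 1781 genes of 1500 to 2000 bases one of 0.19. The source of this trend was not tested. Egr1 (4484 bases), Egr3 (3940) and Fosb (3782) are long and were higher, and Klf6 (4225) is long and was lower. With a lowess trend on length taken out of each library, the log2 fold changes at 100 mg/kg became 1.30 for Egr1 (adjusted p = 1.41e-09), 1.46 for Egr3 (1.04e-11), 0.77 for Fosb (0.011), 0.48 for Junb (1809 bases; 0.0312) and -0.48 for Klf6 (0.000707). The shortest member, Ier2 (1522 bases), went to 0.34 and lost its call (0.151).

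**Figure D4:**
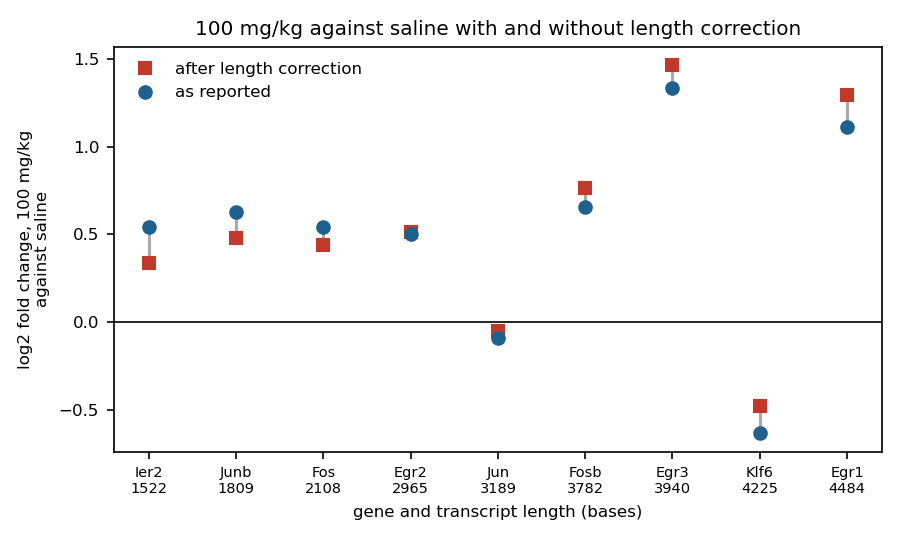
Log2 fold change at 100 mg/kg against saline for the 9 tested members, ordered by transcript length in bases, as reported (circles) and after the length correction (squares). Long members move up and short members move down with the correction, and the sign of each of the 9 stays the same.

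Other genes of the response were read from lists. Of 43 tested further immediate early genes, 12 rose and 5 fell at 100 mg/kg (39.5% called, beside 52.4% of all genes), with a median log2 fold change of 0.15. At 50 mg/kg 2 rose and 2 fell (9.3%, beside 17.2% of all genes), and at 200 mg/kg 4 rose and 5 fell (20.9%, beside 18.6%). Fosl2, another FOS-type subunit, fell at each dose, with means of 3.39 ± 0.34, 2.79 ± 0.745 and 3.02 ± 0.207 CPM at 50, 100 and 200 mg/kg and 5.41 ± 0.541 CPM in saline testes. Its log2 fold changes were -0.67 ± 0.17, -0.94 ± 0.18 and -0.83 ± 0.18 (adjusted p = 0.00828, 8.33e-05 and 0.00154 in edgeR's quasi-likelihood test). Per1, a clock gene that is also induced early, rose at each dose (0.21 ± 0.051, 0.31 ± 0.051 and 0.33 ± 0.051; adjusted p = 0.00591, 1.9e-05 and 7.31e-05). Arc, a synaptic immediate early gene, fell at 50 mg/kg (194 ± 5.76 CPM against 225 ± 1.13 CPM in saline testes; adjusted p = 0.00226) and at 200 mg/kg (190 ± 8.36 CPM; adjusted p = 0.000472), but rose at 100 mg/kg (250 ± 12.5 CPM; log2 0.15 ± 0.046, adjusted p = 0.00791). Tiparp, which encodes a mono-ADP-ribosyltransferase, fell at 100 mg/kg (-0.46 ± 0.065; adjusted p = 3.05e-06). Leaving out 100 mg/kg library 3, the log2 fold changes at that dose were -0.75 for Fosl2, 0.30 for Per1, 0.12 for Arc and -0.48 for Tiparp, each called. The length correction made those of Per1 and Tiparp 0.51 and -0.30, both called.

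NAB1 and NAB2 are the corepressors that bind EGR proteins and limit their activity, and Nab2 is itself a known EGR target. At 100 mg/kg Nab2 rose 1.69-fold, with 11.3 ± 0.927 CPM against 6.71 ± 0.381 CPM in saline testes (adjusted p = 7.4e-06). Nab1 fell 1.56-fold, with 11.3 ± 0.565 CPM against 17.6 ± 1.22 CPM (adjusted p = 6.75e-06 in edgeR's quasi-likelihood test). At 50 and 200 mg/kg Nab2 averaged 5.98 ± 0.543 and 6.07 ± 0.543 CPM (adjusted p = 0.421 and 0.493) and Nab1 16.6 ± 1.29 and 16.0 ± 1.52 CPM (adjusted p = 0.566 and 0.352), and neither passed. Between doses Nab2 was 1.89-fold higher at 100 than at 50 mg/kg (0.92 ± 0.12; adjusted p = 7.01e-07) and 1.86-fold lower at 200 than at 100 mg/kg (-0.89 ± 0.12; adjusted p = 8.69e-07). Their log2 fold changes over saline were 0.72 for Nab2 and -0.59 for Nab1 without 100 mg/kg library 3, both called.

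Of SRF and its partners, 7 genes tested, Srf rose at 100 mg/kg (43.9 ± 3.48 CPM against 35.8 ± 1.39 CPM in saline testes; log2 0.29 ± 0.067, adjusted p = 0.000734) and fell at 200 mg/kg (30.6 ± 1.31 CPM; -0.23 ± 0.069, adjusted p = 0.0244). The fall was lost without saline library 2 (adjusted p = 0.0775) or 3 (0.0938) and without 200 mg/kg library 2 (0.091) or 3 (0.065). Its coactivator gene Mrtfa rose at 100 mg/kg (0.21 ± 0.060; adjusted p = 0.00472), and Mrtfb was called lower (-0.19 ± 0.071; adjusted p = 0.0269) but higher after the length correction (0.18; adjusted p = 0.0231), and its call was also lost without 100 mg/kg library 2 (0.133) or 3 (0.0763), without saline library 1 (0.0592), in DESeq2 (0.0517), on library size alone (0.0566) and in the fit of those groups alone (0.0593). The rises were 0.25 for Srf and 0.20 for Mrtfa without 100 mg/kg library 3, both called, and the length correction gave 0.39 for Mrtfa (adjusted p = 2.2e-06). The 3 calls of 7 at 100 mg/kg were 42.9%, beside 52.4% of all genes, and the single call at 200 mg/kg was 14.3%, beside 18.6%. At 50 mg/kg edgeR's quasi-likelihood test called 0 of the 7, with 1 (Mrtfb) at an unadjusted p under 0.05, DESeq2 called 0 and limma voom 1.

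Among 38 tested MAP kinases and their phosphatases, 1 rose and 2 fell at 50 mg/kg (7.89% called, beside 17.2% of all genes), 8 rose and 9 fell at 100 mg/kg (44.7%, beside 52.4%), and 3 rose and 4 fell at 200 mg/kg (18.4%, beside 18.6%). Dusp2, a nuclear phosphatase of MAP kinases, rose 1.98-fold at 50 mg/kg (2.74 ± 0.538 CPM against 1.38 ± 0.0313 CPM in saline testes; adjusted p = 0.00364) and 2.12-fold at 100 mg/kg (2.92 ± 0.322 CPM; adjusted p = 0.000253), and at 200 mg/kg it averaged 1.97 ± 0.356 CPM (adjusted p = 0.148). Mapk3, which encodes the kinase ERK1, was called lower at 50 mg/kg (-0.17 ± 0.054; adjusted p = 0.0308) and 200 mg/kg (-0.18 ± 0.054; adjusted p = 0.0219) and higher at 100 mg/kg (0.18 ± 0.053; adjusted p = 0.00581). The call at 50 mg/kg was lost on library size alone and without saline library 1 or 3 or 50 mg/kg library 2 or 3 (0.0651 to 0.137), that at 200 mg/kg without saline library 1 or 3 or 200 mg/kg library 2 or 3 (0.0501 to 0.1), and that at 100 mg/kg after the length correction (0.025; adjusted p = 0.667) and without saline library 2 (0.0529). Mapk9, which encodes a JUN N-terminal kinase, fell 1.84-fold at 100 mg/kg (31.8 ± 3.08 CPM against 58.7 ± 2.40 CPM in saline testes; adjusted p = 3.29e-10) and 1.36-fold at 200 mg/kg (43.2 ± 1.28 CPM; adjusted p = 3.61e-05).

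The phosphatase gene Dusp16 fell 1.56-fold at 100 mg/kg (46.0 ± 6.02 CPM against 71.8 ± 2.11 CPM in saline testes; adjusted p = 6.91e-08 in edgeR's quasi-likelihood test) but rose 1.17-fold at 200 mg/kg (84.3 ± 2.27 CPM; adjusted p = 0.0175). The rise was lost without saline library 2 or 3 or 200 mg/kg library 2 or 3 (adjusted p from 0.0602 to 0.0853). Rps6ka2, a kinase activated by ERK, was called lower at every dose (-0.33 ± 0.095, -0.72 ± 0.099 and -0.39 ± 0.096 at 50, 100 and 200 mg/kg; adjusted p = 0.0199, 1.68e-06 and 0.0057), and the call at 50 mg/kg was lost without saline library 1 or 3 or any 50 mg/kg library (0.0523 to 0.101). Mapk10, another JUN kinase gene, fell at 200 mg/kg (-0.30 ± 0.052; adjusted p = 0.000226), and at 100 mg/kg it was called lower (-0.17 ± 0.051; adjusted p = 0.00789) but higher after the length correction (0.16; adjusted p = 0.00526). That correction made the 100 mg/kg values of Dusp16 and Rps6ka2 -0.41 and -0.47, both called. Without 100 mg/kg library 3 the log2 fold changes over saline were 1.06 for Dusp2, 0.12 for Mapk3, -0.80 for Mapk9, -0.53 for Dusp16, -0.65 for Rps6ka2 and -0.14 for Mapk10, each called.

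In the CREB pathway, 13 genes tested, 3 rose and 2 fell at 50 mg/kg (38.5% called, beside 17.2% of all genes), 3 rose and 4 fell at 100 mg/kg (53.8%, beside 52.4%), and 2 rose and 2 fell at 200 mg/kg (30.8%, beside 18.6%). Ep300, a histone acetyltransferase that CREB recruits, rose at 50 mg/kg (0.29 ± 0.062; adjusted p = 0.00199) and 200 mg/kg (0.39 ± 0.062; adjusted p = 7.81e-05). At 100 mg/kg Ep300 (-0.38 ± 0.064) and the related Crebbp (-0.40 ± 0.067) were called lower, but stood at 0.027 and 0.029 after the length correction, with no call (adjusted p = 0.737 and 0.752). Prkar1a, which encodes a regulatory subunit of protein kinase A, fell at 50 mg/kg (-0.17 ± 0.042; adjusted p = 0.00621) and 200 mg/kg (-0.20 ± 0.042; adjusted p = 0.00131), as did a catalytic subunit gene, Prkaca, at 200 mg/kg (-0.17 ± 0.048; adjusted p = 0.0122, and 0.052 without saline library 2). Creb3l4, a CREB-like gene of spermatids, rose at 50 mg/kg (0.15 ± 0.040; adjusted p = 0.0124) and 100 mg/kg (0.28 ± 0.040; adjusted p = 3.01e-06 in edgeR's quasi-likelihood test). The first of these calls was lost without saline library 1 or 3 or 50 mg/kg library 1 (adjusted p from 0.0518 to 0.0724), and the other after the length correction (0.081; adjusted p = 0.0587). Without 100 mg/kg library 3 the log2 fold changes over saline were -0.31 for Ep300, -0.38 for Crebbp and 0.27 for Creb3l4, each called.

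Of 16 tested partners from the AP-1 and ATF zipper families, 2 rose at 50 mg/kg (12.5% called, beside 17.2% of all genes), 4 rose and 5 fell at 100 mg/kg (56.2%, beside 52.4%), and 1 rose and 1 fell at 200 mg/kg (12.5%, beside 18.6%). The small Maf gene Mafk rose at 50 mg/kg (0.46 ± 0.099; adjusted p = 0.00211) and 100 mg/kg (0.53 ± 0.098; adjusted p = 7.63e-05). Ddit3, the stress factor CHOP, rose 1.55-fold at 100 mg/kg (34.8 ± 5.30 CPM against 22.4 ± 1.82 CPM in saline testes; adjusted p = 3.41e-06 in edgeR's quasi-likelihood test). The symbol Ddit3 matched 2 Ensembl identifiers, and its values are those of ENSMUSG00000025408 alone. Atf4, the main factor of the integrated stress response, rose at 50 mg/kg (0.22 ± 0.071; adjusted p = 0.0371) and 100 mg/kg (0.35 ± 0.070; adjusted p = 0.000182), and Atf5 at 100 mg/kg (0.37 ± 0.11; adjusted p = 0.00558) and 200 mg/kg (0.43 ± 0.11; adjusted p = 0.00587). The Atf4 call at 50 mg/kg was lost in DESeq2, without the count filter and without 200 mg/kg library 3 or any saline or 50 mg/kg library (adjusted p from 0.0545 to 0.143), that of Atf5 at 200 mg/kg without 200 mg/kg library 3 (0.31; adjusted p = 0.0717), and that of Atf5 at 100 mg/kg after the length correction (0.22; adjusted p = 0.104). Nfe2l1 fell at 100 mg/kg (-0.49 ± 0.067; adjusted p = 1.69e-06) and 200 mg/kg (-0.27 ± 0.067; adjusted p = 0.0064). The length correction made the 100 mg/kg values of Ddit3, Atf4 and Nfe2l1 0.30, 0.18 and -0.30, each called. They were, without 100 mg/kg library 3, 0.52 for Ddit3, 0.27 for Atf4 and -0.39 for Nfe2l1, and those of Mafk and Atf5 were 0.51 and 0.41, each called.

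Markers of cell types moved in the same libraries. The summed level of 6 spermatocyte markers was 818 to 845, 505 to 582 and 790 to 799 CPM at 50, 100 and 200 mg/kg, against 883 to 901 CPM in saline testes. Of the 6, 2 were called higher and 1 lower at 50 mg/kg, and 2 higher and 3 lower at 200 mg/kg. At 100 mg/kg 1 was called higher and 4 lower. The gene with the largest part in the sum was Piwil1 (337 CPM over the 12 libraries). That of 5 round spermatid markers was 1300 to 1450 CPM at 100 mg/kg against 1090 to 1100 CPM in saline testes, with all 5 called higher. Elongating spermatid markers summed to 15800 to 20000 CPM at 100 mg/kg against 13800 to 14200 CPM in saline testes, and 4 of 5 were called higher. Among all genes tested at 100 mg/kg, 25.6% were called higher and 26.8% lower, so a call there was common. Marker sums and calls, here and for somatic cells below, are given without the length correction and with all libraries kept. Fold changes at 100 mg/kg followed transcript length across genes (rank correlation -0.492). The part of length, or of the library that stood apart, in the marker shifts at that dose was not tested. Those shifts are therefore not a measure of cell content.

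Among somatic cells, 10 macrophage markers summed to 118 to 131, 139 to 152 and 97.3 to 104 CPM at 50, 100 and 200 mg/kg, against 137 to 140 CPM in saline testes. Of these, at 50 mg/kg 1 was called lower, at 100 mg/kg 3 higher and 3 lower, and at 200 mg/kg 6 lower. For this and the lists that follow, the shares of all genes called lower were 8.02%, 26.8% and 8.3% at 50, 100 and 200 mg/kg. The shares called higher were 9.21%, 25.6% and 10.3%. Sertoli cell markers, 8 genes, summed to 777 to 826, 880 to 974 and 722 to 724 CPM, against 980 to 996 CPM in saline testes, and 4, 3 and 4 were called lower. Most of the Sertoli sum came from Clu (708 CPM over the 12 libraries). Leydig cell markers, 6 genes, summed to 942 to 986, 860 to 935 and 893 to 929 CPM, against 991 to 1020 CPM in saline testes, and 3, 3 and 4 were called lower, with 2 called higher at 50 mg/kg. Peritubular myoid markers (6 genes) reached 504 to 566 CPM at 100 mg/kg against 453 to 472 CPM in saline testes, with 1 called higher and 1 lower and most of the sum from Actg2 (413 CPM over the 12 libraries). Globin and other blood genes (5) reached 41.4 to 51.8 CPM at 100 mg/kg against 31.4 to 34.3 CPM in saline testes, with 2 called higher. Endothelial markers (8) summed to 29.8 to 30.8 CPM there against 34 to 37.5 CPM in saline testes, with 1 called higher and 1 lower. Heat shock genes (6) summed to 2510 to 2730 against 3510 to 3600 CPM, with 2 called higher and 2 lower and most of the sum from Hsp90aa1 (2520 CPM over the 12 libraries). No marker was at 0 in all 12 libraries, and the sparsest were Hba-a2 and Lcn5, at 0 in 11 of them. The part of these shifts in the values of the immediate early genes was not tested.

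The genes whose log2 CPM most resembled the mean standardised level of the 9 tested members across the 12 libraries, among 13654 candidates, were Abcf1 (Pearson r = 0.928), Vars2 (0.927), Rab8a (0.914), Tnrc18 (0.906) and B4galt2 (0.905). These coefficients describe 12 libraries that share their group differences, and the largest common difference is that of the 100 mg/kg group. Vars2, which encodes the mitochondrial valyl-tRNA synthetase, averaged 3.68, 3.15, 8.62 and 3.10 CPM in saline and at 50, 100 and 200 mg/kg. Abcf1, a translation factor gene, averaged 105, 98.9, 118 and 101 CPM in the same order.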

How the data were processed

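The authors deposited read counts per gene, whole numbers in one table of 12 libraries and 21959 genes under Ensembl identifiers. RNA came from frozen testis and was made into stranded polyA libraries, per the labels' protocols. Trimmomatic, STAR, featureCounts, DESeq2 and the builds mm10 and GRCm38 are listed in the submitters' processing notes. Their versions and roles, the annotation, the strand setting and the handling of multiply mapped reads were not given in the sources used. Groups and replicate numbers came from the titles, because the descriptions repeat a replicate number in the treated groups.

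Differences were tested with edgeR 4.0.16 in R 4.3.3. Genes were filtered with filterByExpr (minimum 10 counts), libraries were scaled with TMM, and the 4 groups were fitted together by robust quasi-likelihood (8 residual degrees of freedom, common biological coefficient of variation 5.01%, median prior degrees of freedom 16). A call needed a p under 0.05 after Benjamini-Hochberg adjustment across the 15682 genes that were kept. The standard error is the log2 fold change divided by the square root of F. Counting intervals are exact and cover counting error only. No pairing by replicate number was seen. The correlation of deviations from the group mean ran from -0.166 to 0.054 over 18 same-number pairs. Over 36 pairs of different number it ran from -0.124 to 0.184. With 3 libraries to each mean these values cannot exclude a pairing. Symbols, positions and lengths came from GENCODE M21 on GRCm38, promoters from RefSeq on GRCm38.p6. The script was tested on simulated counts.

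The members and the 6 pathway and 13 marker lists were chosen with earlier results of these data known. All members are named, with up to 3 genes of each pathway list per comparison with saline that passed with the smallest p (also at other doses where they passed), and the 5 genes of at least 1 CPM most correlated with the members. Alternatives were RLE factors, library size alone, no count filter or at least 20 counts in 3 libraries, DESeq2 1.42.0, weighted limma 3.58.1 voom, a fit restricted to the groups compared, a fit without the 100 mg/kg libraries, replicate number as a block, a lowess trend on transcript length (span 0.3) as an offset, and leaving out each library. One gene among those the rule selects is not reported here.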

Additional observations from a re-analysis of the deposited data

Results flagged for a closer look

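Egr1 stands out because its differences from saline ran in opposite directions at different doses and the doses were then tested against each other. It was higher at 100 than at 50 mg/kg by 2.10 on the log2 scale (± 0.16, SE; adjusted p = 1.68e-10 in edgeR's quasi-likelihood test), where it had risen at 100 mg/kg and fallen at 50 mg/kg against saline. It was lower at 200 than at 100 mg/kg, with a log2 fold change of -1.63 ± 0.15 (adjusted p = 3.63e-09). In both comparisons the 3 libraries of one dose did not overlap with the 3 of the other.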

How the results depend on the processing

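The number of members called kept within 1.5 times its value in 143 of 149 recomputations. That margin is wide enough to count 4 in place of 6 as kept. At 100 mg/kg against saline 4 members were called without saline library 1 or without 100 mg/kg library 2. At 200 against 50 mg/kg the number was 0 throughout, which also counts as kept. The exceptions were at 200 mg/kg against saline, where DESeq2 called 1 member in place of 3 and leaving out 1 library gave 1 to 3 (1 without saline library 2 or any 200 mg/kg library), and at 200 against 100 mg/kg, where leaving out 1 library gave 3 to 6 (3 without 200 mg/kg library 1). With replicate number as a block, which the numbers do not support as a pairing, 2, 6 and 2 members were called at 50, 100 and 200 mg/kg against saline. The block gave 5 at 100 against 50 mg/kg, 0 at 200 against 50 mg/kg, 6 at 200 against 100 mg/kg and 6 for any difference among the 4 groups.

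Of 881 recomputed member values, 812 kept direction and side of the threshold, 54 lost a call, 3 gained one and 12 changed sign, all of these 12 in values that were not called. Between doses these values cover only the members called there, besides Egr1 and Egr3. Among the members left out, limma voom called Fosb at 200 against 100 mg/kg. At 50 mg/kg Egr2 became -0.0049 without the count filter and -0.31 in limma voom. Leaving out 1 library gave -0.78 to 0.40 for Egr2, -0.20 to 0.015 for Jun and -0.45 to 0.0092 for Ier2. At 200 mg/kg Ier2 became 8.77e-05 on library size alone and 0.013 after the length correction, and -0.17 to 0.29 on leaving out 1 library. At 100 mg/kg the length correction turned Crebbp (0.029), Ep300 (0.027), Mrtfb (0.18) and Mapk10 (0.16). The cause was not tested. At 100 mg/kg the calls in each pathway list kept within 1.5 times those reported. Over all alternatives the calls in lists other than the EGR corepressors ran, at 50 mg/kg, from 3 to 10 for further immediate early genes (4 reported), 1 to 4 for AP-1 and ATF partners (2), 0 to 1 for SRF and partners (0), 1 to 9 for MAP kinases and phosphatases (3) and 3 to 7 for the CREB pathway (5). At 200 mg/kg they ran from 4 to 10 for further immediate early genes (9 reported), 1 to 5 for AP-1 and ATF partners (2), 0 to 2 for SRF and partners (1), 4 to 10 for MAP kinases and phosphatases (7) and 2 to 6 for the CREB pathway (4).

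Over all genes, 2701 were called at 50 mg/kg against saline, and limma voom called 4159. Without saline library 2 or 3 or 50 mg/kg library 3 the counts were 1738, 1714 and 1714. Library size alone moved the share of higher calls there to 66.7%, beside 53.5%. At 200 mg/kg 2914 were called, 4439 in the fit of those groups alone and 1941 without 200 mg/kg library 1. At 200 against 50 mg/kg 792 were called, 1631 in limma voom, 1563 in the fit of those groups alone, 1689 without the 100 mg/kg libraries, 1690 without 100 mg/kg library 3 and 462 to 507 without any 50 or 200 mg/kg library. Depth limits Egr2 and Fos (76 counts each) and Atf3 (46 counts).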
